A study of Mus musculus with 8 samples.

Results

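Eif2b1, Eif2b2, Eif2b3, Eif2b4 and Eif2b5 encode the 5 subunits of eIF2B, and Eif2s1 encodes the alpha subunit of its substrate eIF2. These 6 genes were followed on 8 two-colour arrays of MC3T3-E1 cells, a mouse osteoblast line from skull bone. They were found by the gene name printed in the array files, and every probe was kept, which gave 8 probes of the 41174 probes measured and 6 of 28786 genes. Eif2b2 was selected on its log2 ratios on these arrays, in every comparison, so its values are given as a description, without a test. The other 5 genes were chosen because they work with it.

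The osteoblasts had grown in co-culture with tumour cells that overexpressed Jagged1, a ligand of Notch receptors, or with tumour cells that carried the empty vector. MRK-003, an inhibitor of gamma-secretase, or its solvent DMSO was added. Gamma-secretase is the protease that releases the active intracellular part of Notch. The 4 groups were Jagged1 with MRK-003, vector with MRK-003, Jagged1 with DMSO and vector with DMSO, each with 2 biological replicates. All replicate 1 arrays lay on slide 1 and all replicate 2 arrays on slide 2. The sample was labelled with Cy3 and a commercial mouse reference RNA with Cy5 on every array, so each value is a log2 ratio of sample over reference. MRK-003 or DMSO reached the whole co-culture, and every group contained tumour cells. The sources used here name neither the tumour line nor its species, and do not say whether the cell types were separated before extraction.

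eIF2 carries the initiator methionyl-tRNA to the small ribosomal subunit in its GTP-bound form. It leaves the ribosome bound to GDP, and eIF2B exchanges that GDP for GTP so that eIF2 can be used again. The epsilon subunit (Eif2b5) holds the catalytic domain and works together with gamma (Eif2b3), while alpha (Eif2b1), beta (Eif2b2) and delta (Eif2b4) form the regulatory core that senses eIF2. Stress kinases phosphorylate eIF2 alpha, which turns eIF2 into an inhibitor of eIF2B, lowers protein synthesis in general and favours translation of the transcription factor ATF4. In humans, mutations in any of the 5 subunit genes cause vanishing white matter, a disease of the brain.

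Eif2b2 was measured by a single probe, so its result rests on 1 sequence. For each probe of the complex the 30 bases around its longest match to a probe of another gene are shown, because such a match bears on whether the signal belongs to the named gene. Capitals mark that matching run, on either strand.
Eif2b2, bases 23 to 52 of 60: gtgtttgCTTCAGGAACTTCAAccttctag
Eif2b1, bases 1 to 30 of 60: gTTCTGGAAGCAAGCtgaggtgcccttatg
Eif2b4 (A_51_P424079), bases 1 to 30 of 60: tggtctATGACGTGACTCCacctgagctcg
Eif2b4 (A_52_P425589), bases 31 to 60 of 60: ccaatcagagaactccCAGGACCTGGTAGT
Eif2b3, bases 31 to 60 of 60: ttagtagtccatgcctcGTTTGACCTTCTT
Eif2b5, bases 1 to 30 of 60: aacaTTAGCCTAAAGGAagtgatgcaggtc
The Eif2b2 probe shared at most 15 consecutive bases with a probe of another gene, Trh. For the other probes above the longest shared run was 13 or 14 bases. The Eif2b2 probe lies on chromosome 12 at chr12:83226181-83226240 of build mm7, on the plus strand. Eif2b1 lies at chr5:123816839-123816898 on the minus strand, Eif2b3 at chr4:116444947-116445006 on the plus strand and Eif2b5 at chr16:20057039-20057098 on the plus strand. The Eif2b4 probes start 4062 bases apart on the minus strand of chromosome 5, at chr5:30220170-30220229 and chr5:30224232-30224696, and the second interval spans 465 bases for a probe of 60. The Eif2s1 probes start 503 bases apart on the plus strand of chromosome 12, at chr12:76843573-76843632 and chr12:76844076-76844135. Exon and UTR positions were not analysed here, as no annotation of build mm7 was used.

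Median Cy3 signals were 165 to 204 on slide 1 and 76.5 to 117 on slide 2, and all 8 member probes passed the filter on dim probes. Among the 33060 probes tested with limma, 0.00907% differed between Jagged1 and vector in DMSO at an adjusted p under 0.05 (3 probes) and 0.185% between MRK-003 and DMSO with Jagged1 (61 probes). With the slide as a block these counts were 76 and 484. In Jagged1 against vector under MRK-003, in MRK-003 against DMSO with vector, and in the interaction the share was 0% each, while 239, 1062 and 597 probes had an unadjusted p under 0.05. All 12 osteoblast markers were well above background on every array, and none passed the test. Their median change was −0.25 in Jagged1 against vector in DMSO, with 8 of 12 negative, and 0.21 in MRK-003 against DMSO with Jagged1, and with limited background −0.10 and 0.16. With limited background and the slide as a block, 1 and 3 of the 12 passed in these comparisons, where 3.08% and 8.78% of all probes did. In the interaction 1 passed in that setting. Of 15 epithelial markers 12 to 14 were well above background, with Esrp1 on 0 arrays, Cdh1 on 2 and Cldn4 on 4. Hey1, a direct Notch target, stood at −2.11 and −0.81 with Jagged1 and MRK-003 against −2.68 and −2.15 with vector and MRK-003, and at 3.19 and 2.78 in the Jagged1 DMSO cultures against −0.61 and −0.55 in the vector DMSO cultures. The probe of mouse Jag1 gave 1.99 and 1.81 with Jagged1 and MRK-003 against 1.83 and 2.01 with vector and MRK-003, which overlapped. It gave 3.22 and 3.01 with Jagged1 and DMSO against 2.15 and 1.94 with vector and DMSO.

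A few spots with very high local background widened the background correction on both Jagged1 DMSO arrays and on the second Jagged1 MRK-003 array. The fitted mean of the Cy3 background residual was −83.4, −260 and −312 there, and −14.7 to −3.35 on the other 5 arrays. The epithelial markers averaged −1.44 and −1.12 in the Jagged1 DMSO cultures and −1.75 and −1.67 in the vector DMSO cultures, with all 12 tested markers positive and a median change of 0.57. The 10 macrophage markers had a median change of 0.75. After the local background was limited to its 99th percentile on each array, a step chosen after seeing the data, those medians were 0.17 and 0.02. Of the 12 epithelial markers 11 stayed positive there. The 2 medians were 0.28 and 0.20 with scanner processed signals, 0.32 and 0.45 under median centring, and 0.12 and −0.02 with Cy3 alone. In MRK-003 against DMSO with Jagged1 11 of the 12 epithelial markers were negative, with a median of −0.19. Whether tumour cells contributed to these values was not tested. No marker passed the test in either list. The change of Eif2b2, a bright probe, was 1.19 without the limit and 1.21 with it.

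Eif2b2 showed 3 levels in the 4 groups. It was lowest in both groups that received MRK-003, highest in cells cultured with Jagged1 tumour cells in DMSO and intermediate with vector tumour cells in DMSO. With MRK-003 the log2 ratios were 0.17 and 0.31 in the Jagged1 cultures and 0.06 and 0.22 in the vector cultures. With DMSO they were 2.26 and 2.23 in the Jagged1 cultures and 1.09 and 1.01 in the vector cultures. The DMSO groups did not overlap each other or either MRK-003 group, while the Jagged1 and vector cultures in MRK-003 overlapped across slides, although on each slide the Jagged1 culture was the higher. In bulk RNA, fewer cells that express a gene and less RNA per cell cannot be told apart.

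**Figure D1:**
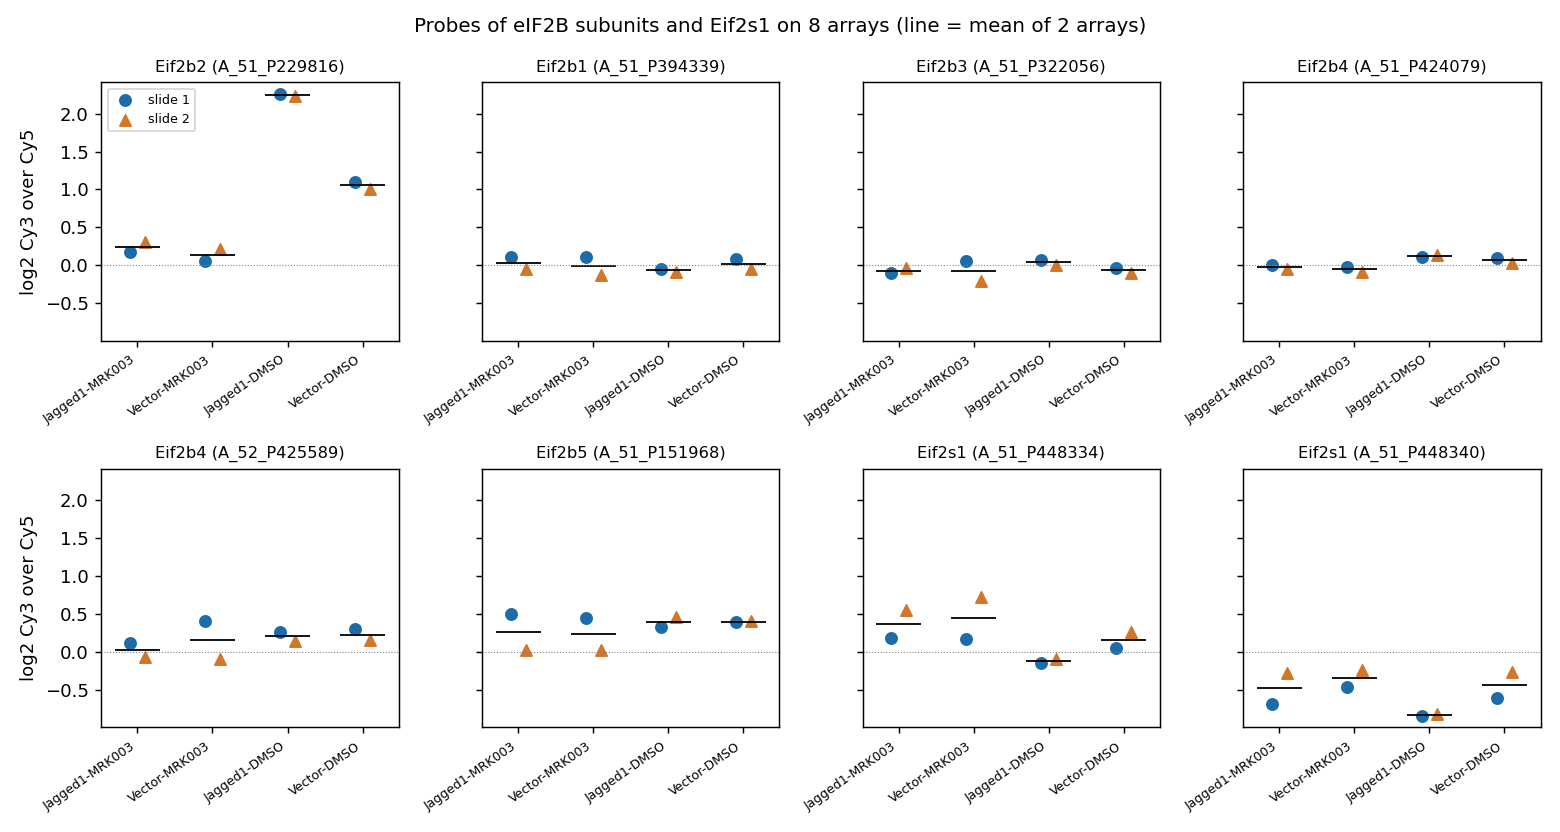
Log2 ratio of Cy3 (sample) over Cy5 (reference RNA) for each of the 8 probes, with 1 panel per probe, the 4 groups along the horizontal axis, 1 point per array by slide and a line at the mean of 2 arrays. Eif2b2 spans 2.11 between its highest and lowest group mean, whereas the 5 probes of the other subunits stay between −0.21 and 0.50 on all arrays.

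The raw signals were likewise highest with Jagged1 and DMSO, though on slide 1 they were lower with Jagged1 than with vector in MRK-003. Mean Cy3 signal on the Eif2b2 probe was 10952 and 10036 with Jagged1 and MRK-003 on slides 1 and 2, and 12276 and 8561 with vector and MRK-003. It was 51243 and 27444 in the Jagged1 DMSO cultures against 23750 and 11708 in the vector DMSO cultures. The reference channel of the same spots on slide 1 stayed between 21563 and 22709, so there the spread lay in the sample channel. On slide 2 the reference was 14639 and 15837 in the Jagged1 and vector MRK-003 cultures, and 11492 and 9786 in the Jagged1 and vector DMSO cultures. The probe was not saturated in either channel on any array.

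In MRK-003 the group means of Eif2b2 were 0.24 ± 0.10 with Jagged1 and 0.14 ± 0.11 with vector (SD, n = 2 each). In DMSO they were 2.25 ± 0.02 with Jagged1 and 1.05 ± 0.06 with vector. The Jagged1 difference was thus 1.19 ± 0.10 on the log2 scale in DMSO (SE), or 2.29-fold, and it was 1.17 and 1.22 on slides 1 and 2. In MRK-003 the same difference was 0.10 ± 0.10, and it was 0.11 and 0.09 on slides 1 and 2. MRK-003 against DMSO gave −2.00 ± 0.10 with Jagged1, a ratio of 0.249, and −0.91 ± 0.10 with vector, a ratio of 0.531. On the slides these changes were −2.09 and −1.92 with Jagged1, and −1.04 and −0.79 with vector. The Jagged1 difference in DMSO exceeded that in MRK-003 by 1.09 ± 0.14. Of all tested probes 0.151% had a larger span of group means than Eif2b2. These values are those that singled the gene out, and no p-value is given for them.

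The partners in the regulatory core, alpha and delta, gave ratios close to the reference in every group. With MRK-003 Eif2b1 gave 0.11 and −0.05 in the Jagged1 cultures against 0.11 and −0.14 in the vector cultures. With DMSO it gave −0.05 and −0.09 in the Jagged1 cultures against 0.08 and −0.05 in the vector cultures. The groups overlapped in all of these comparisons, and the 4 group means of Eif2b1 spanned 0.10, less than the median span of 0.22 over all probes.

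Eif2b4 was read by a pair of probes that differed in spread. With MRK-003 A_51_P424079 gave 0.00 and −0.05 in the Jagged1 cultures and −0.03 and −0.09 in the vector cultures. With DMSO it gave 0.10 and 0.13 in the Jagged1 cultures against 0.10 and 0.03 in the vector cultures, so the MRK-003 arrays lay below the DMSO arrays with both kinds of tumour cell. Those differences, −0.14 ± 0.08 with Jagged1 and −0.12 ± 0.08 with vector, did not pass (adjusted p = 0.93 and 1.0, limma). A_52_P425589 varied more, with 0.12 and −0.06 in the Jagged1 MRK-003 cultures and 0.41 and −0.09 in the vector MRK-003 cultures. In DMSO it gave 0.26 and 0.15 with Jagged1 and 0.30 and 0.16 with vector.

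The catalytic pair gave differences that did not pass. In MRK-003 Eif2b5 parted by slide, with 0.50 on slide 1 and 0.03 on slide 2 with Jagged1, and 0.44 and 0.02 with vector. In DMSO it gave 0.33 and 0.46 with Jagged1 against 0.39 and 0.40 with vector, a difference of −0.00 ± 0.20. For Eif2b3 the MRK-003 values were −0.11 and −0.03 with Jagged1 and 0.06 and −0.21 with vector, and the DMSO values 0.07 and 0.00 with Jagged1 against −0.03 and −0.10 with vector. Its Jagged1 difference in DMSO was 0.10 ± 0.11 (adjusted p = 0.792, limma). This was the dimmest member probe, with Cy3 signals of 68.1 to 153. The array annotates it to a cDNA sequence, whereas the other member probes are annotated to RefSeq transcripts. Its Jagged1 difference in DMSO was 0.29 with scanner processed signals and 0.36 with Cy3 alone, where it did not pass either (adjusted p = 0.762 and 1.0).

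None of the 5 probes of the other subunits passed in any of the 5 comparisons, and none had an unadjusted p under 0.05. Of all probes, 0.723% to 7.92% had such a p, depending on the comparison. Between Jagged1 and vector in DMSO their changes ran from −0.09 to 0.10, and their 95% confidence intervals all lay between −0.50 and 0.49. Between MRK-003 and DMSO with Jagged1 the changes ran from −0.18 to 0.10, with intervals between −0.62 and 0.39. The 1.19 and −2.00 of Eif2b2 lay outside these limits, but the gene was selected on those values, so this is a description and not a test. The widest of these intervals was that of Eif2b5, whose SE was 0.20, and the narrowest that of Eif2b4 A_51_P424079, whose SE was 0.08 and whose interval for Jagged1 against vector in DMSO ran from −0.15 to 0.25.

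**Figure D2:**
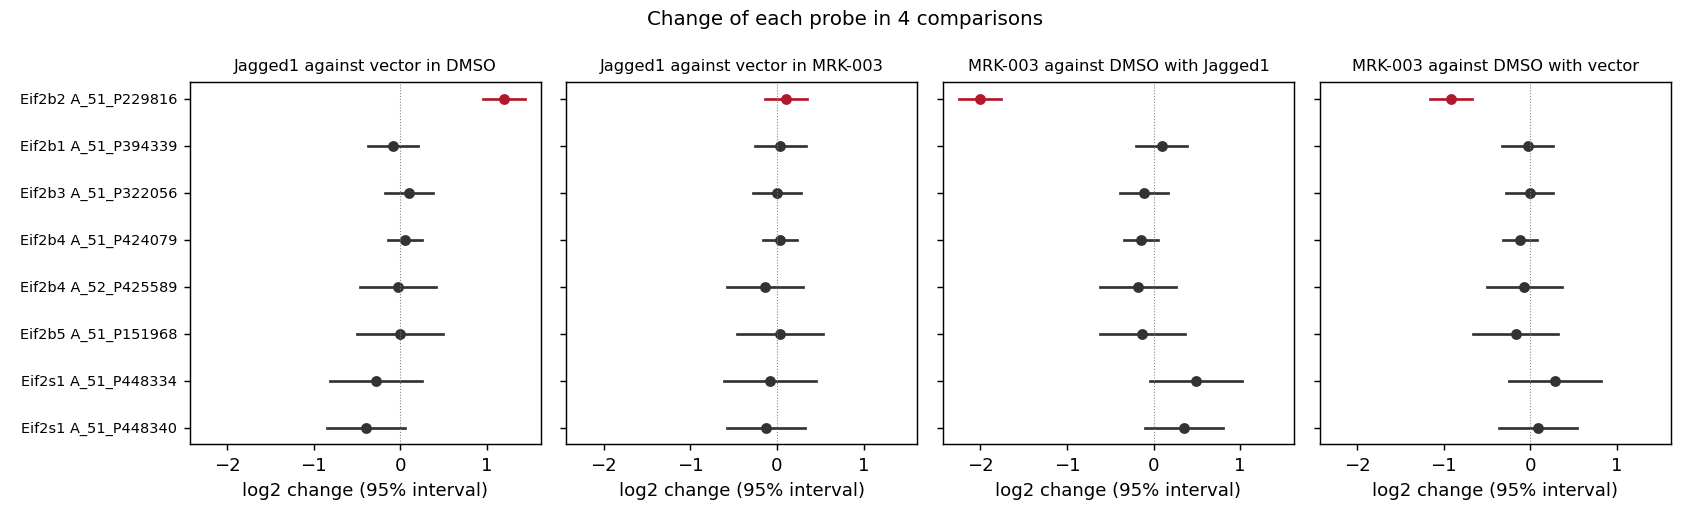
Log2 change of each probe in 4 comparisons, with points for the estimate and bars for its 95% confidence interval from limma, Eif2b2 in red. Eif2b2 was selected on these values, so its points and bars are a description and not a test. The intervals of the other 7 probes include 0 in all 4 panels.

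Each array also gave the ratio of Eif2b2 less the mean of the other 4 subunits on that array. As the reference RNA was the same throughout, differences of this quantity between arrays can be read, though its level depends on the reference. In MRK-003 it was 0.03 and 0.34 with Jagged1 and −0.14 and 0.32 with vector. In DMSO it was 2.13 and 2.11 with Jagged1 against 0.94 and 0.92 with vector. This quantity thus followed the 3 levels seen above, with values on both sides of 0 in MRK-003. The Jagged1 and vector cultures in MRK-003 overlapped here too. When each array was only centred on its median, the Jagged1 difference of Eif2b2 in DMSO was 0.78 and the mean of the other 4 subunits moved to −0.24, so Eif2b2 exceeded them by 1.02 against 1.19 in the loess values. In MRK-003 the Jagged1 difference of Eif2b2 turned to −0.33 under that centring. Over all 19 alternative settings the excess of Eif2b2 over the other 4 subunits ran from 0.98 to 1.20 for Jagged1 against vector in DMSO. For MRK-003 against DMSO with Jagged1 it ran from −2.08 to −1.78. Several settings could not move it, such as the slide as a block, other filters on dim probes and leaving out an array outside the comparison. Eif2b2 was selected on these values, so the ranges are a description and not a test.

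Eif2s1, the substrate's alpha subunit and the target of the stress kinases, was lowest in the Jagged1 DMSO cultures on both of its probes. A_51_P448334 gave 0.18 and 0.56 with Jagged1 and 0.17 and 0.73 with vector in MRK-003, and −0.15 and −0.09 with Jagged1 against 0.06 and 0.26 with vector in DMSO. A_51_P448340 gave −0.69 and −0.28 with Jagged1 and −0.46 and −0.24 with vector in MRK-003, and −0.84 and −0.83 with Jagged1 against −0.61 and −0.27 with vector in DMSO.

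The Jagged1 DMSO arrays did not overlap those of any other group on either Eif2s1 probe, but the differences did not pass. Of all probes, 47.3% did not overlap between Jagged1 and vector in DMSO, and 32.9% between MRK-003 and DMSO with Jagged1. The share without overlap against every other group was not computed. Jagged1 against vector in DMSO was −0.28 ± 0.22 for A_51_P448334 and −0.39 ± 0.18 for A_51_P448340 (adjusted p = 0.722 and 0.652, limma). MRK-003 against DMSO with Jagged1 was 0.49 ± 0.22 and 0.35 ± 0.18 in the same order of probes (adjusted p = 0.743 and 0.869). With the local background limited and the slide as a block, A_51_P448334 passed at 0.68 (adjusted p = 0.0455), and A_51_P448340 did not (adjusted p = 0.102). That is 1 of the 7 tested member probes, in a setting where 8.78% of all probes passed. Over the alternatives the adjusted p of A_51_P448334 in that comparison ran from 0.0455 to 1.0. The span of group means was 0.57 and 0.48 for the Eif2s1 probes, and 12.5% and 17.2% of all probes had a larger one.

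Apart from Eif2b2, 7 member probes were tested, and none was called in any comparison. In Jagged1 against vector in DMSO the 2 arrays of each group did not overlap for 4 of the 7 probes, against 47.3% of all probes, with 2 higher and 2 lower. In Jagged1 against vector under MRK-003 this held for 0 of 7, against 16.5% of all probes. For MRK-003 against DMSO it held for 5 of 7 with Jagged1 and 1 of 7 with vector, against 32.9% and 25.2% of all probes. The comparisons share arrays and are not independent of each other. For MRK-003 against DMSO with Jagged1, the probes without overlap were those of Eif2b3, Eif2b4 and Eif2s1.

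Other genes of the pathway were read from 5 lists, by the brightest probe of each gene, and none passed in any of the 5 comparisons. The first list held 16 further subunits and partners of eIF2 in ternary complex formation and start codon selection. In Jagged1 against vector in DMSO 13 of them had a negative change and 3 a positive one, with a median of −0.13 against −0.01 over all probes, and under median centring all 16 were negative with a median of −0.51. In MRK-003 against DMSO with Jagged1 15 had a positive change, with a median of 0.24 against −0.00. These comparisons share the Jagged1 DMSO arrays. The osteoblast marker medians, −0.25 and 0.21, had the same signs, and their part in these values was not tested. The 15 positive changes were the same in number under scanner processed signals, the authors' table, median centring, Cy3 alone and limited background. In MRK-003 against DMSO with Jagged1, 1 gene of the 16 had an unadjusted p under 0.05, against 7.41% of all probes.

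Denr, which with Mcts1 helps recycle ribosomal subunits and reinitiate, had −0.31 ± 0.16 in Jagged1 against vector in DMSO (adjusted p = 0.662, limma). Eif1ax, a factor that keeps the scanning ribosome open, had −0.48 ± 0.28, and Eif2s3y, a gamma subunit of eIF2, had −0.31 ± 0.24. In MRK-003 against DMSO with Jagged1 the same 3 genes had 0.35, 0.50 and 0.22. None of these differences passed the test.

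The kinases and phosphatase subunits of eIF2 alpha, with regulators such as Gcn1, Impact and Dnajc3, made a list of 12 genes. It had 3 positive and 9 negative changes in Jagged1 against vector in DMSO and a median of −0.17. That median was −0.08 with limited background or scanner processed signals and −0.43 under median centring, where all 12 were negative. Eif2ak1, the haem-regulated kinase, had −0.22 ± 0.12, and Eif2ak4, the kinase that senses uncharged tRNA, had −0.17 ± 0.12 (adjusted p = 0.67 and 0.699). Ppp1r15b, which recruits the phosphatase constitutively, had −0.17 ± 0.11 there and 0.42 ± 0.11 in MRK-003 against DMSO with Jagged1 (adjusted p = 0.299). Ppp1r15a, the stress-induced counterpart, was named after its values were seen. It had −0.78 ± 0.22 in MRK-003 against DMSO with Jagged1 (adjusted p = 0.354, limma). Its array values were −0.97 and −0.92 with Jagged1 and MRK-003 against −0.18 and −0.14 with Jagged1 and DMSO. With vector they were likewise lower in MRK-003, at −0.71 and −1.27 against 0.03 and −0.41 in DMSO. In MRK-003 against DMSO with Jagged1 Ppp1r15a and Ppp1r15b passed with limited background and the slide as a block (adjusted p = 0.00869 and 0.0439, limma). Their changes had opposite signs. These 2 of the 12 genes passed in a setting where 8.78% of all probes did. In MRK-003 against DMSO with Jagged1, 3 of the 12 had an unadjusted p under 0.05, against 7.41% of all probes. With vector 4 of the 12 had one, against 3.21% of all probes. In Jagged1 against vector in DMSO it was 0 of the 12, against 7.92%. The kinases that act on eIF2B epsilon itself, 4 of 5 with a probe, had a median change of −0.02 in Jagged1 against vector in DMSO, 0.05 with scanner processed signals and −0.24 under median centring. Gsk3a had −0.09 ± 0.08, Csnk2a1 0.13 ± 0.12 and Gsk3b −0.24 ± 0.33.

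ATF4 targets report on the response that follows when eIF2B is inhibited. Of 33 such genes 21 had a positive and 12 a negative change in Jagged1 against vector in DMSO, with a median of 0.07 that turned to −0.04 with limited background, −0.01 with Cy3 alone and −0.28 under median centring. Ddit3, the transcription factor CHOP, had 0.33 ± 0.09 (adjusted p = 0.511, limma) and Atf5, a related factor, 0.35 ± 0.13 (adjusted p = 0.612). Phgdh, the first enzyme of serine synthesis, had −0.55 ± 0.21 (adjusted p = 0.611). In MRK-003 against DMSO with Jagged1 the list was split, with 17 positive and 16 negative changes. An unadjusted p under 0.05 was found there for 8 of the 33 genes, against 7.41% of all probes.

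With the slide as a block 2 of the 33 targets passed in MRK-003 against DMSO with Jagged1, where 1.46% of all probes did. They are named after their values were seen. Psat1, the enzyme after Phgdh in serine synthesis, gave −1.16 and −0.97 in the Jagged1 MRK-003 cultures against −1.77 and −1.62 in the Jagged1 DMSO cultures (change 0.64 ± 0.16, adjusted p = 0.306 without and 0.0386 with the block). Nupr1, a stress-induced chromatin protein, gave −1.65 and −1.33 in the Jagged1 MRK-003 cultures against −0.44 and −0.29 in the Jagged1 DMSO cultures (change −1.13 ± 0.25, adjusted p = 0.22 without and 0.0226 with the block). Phgdh had 0.90 ± 0.21 in this comparison (adjusted p = 0.24 without and 0.057 with the block). With limited background and the block 10 of the 33 passed, against the same 8.78% of all probes. In the vector cultures Nupr1 was likewise lower with MRK-003, at −1.70 and −1.28 against −1.03 and −0.41 in DMSO. Psat1 gave −1.25 and −0.96 there with MRK-003 against −1.44 and −1.10 in DMSO, which overlapped.

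The last list, 30 other initiation factors, had 14 positive and 16 negative changes in Jagged1 against vector in DMSO and a median of −0.01. Under median centring 1 was positive and 29 negative, with a median of −0.40, and with scanner processed signals the median was 0.04. Eif3f, a subunit of the eIF3 scaffold, had 0.37 ± 0.16 there and −0.55 ± 0.16 in MRK-003 against DMSO with Jagged1 (adjusted p = 0.64 and 0.377, limma). Eif3b and Eif3c, subunits of the same scaffold, had −0.18 ± 0.09 and −0.17 ± 0.10 in Jagged1 against vector in DMSO. In the interaction no gene of any of the 5 lists had an unadjusted p under 0.05, against 1.81% of all probes.

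**Figure D3:**
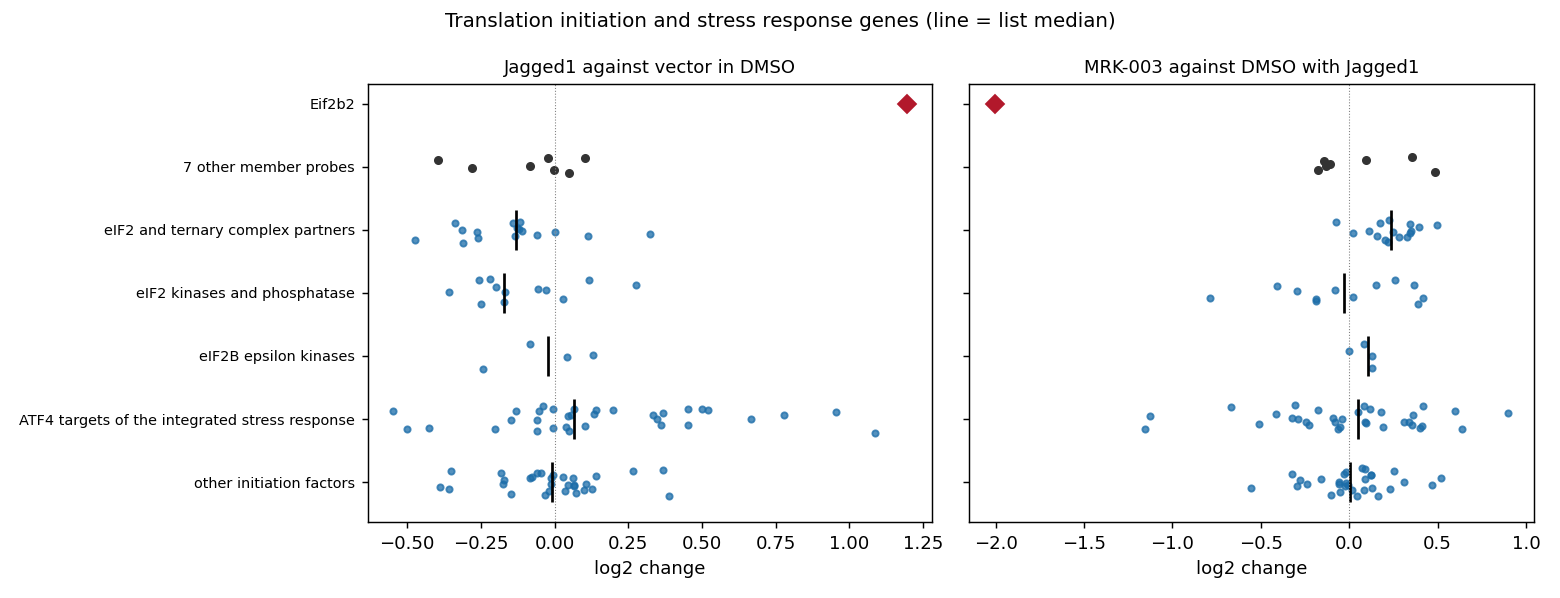
Log2 change of Eif2b2, of the 7 other member probes and of the genes of 5 pathway lists in Jagged1 against vector in DMSO (left) and MRK-003 against DMSO with Jagged1 (right), with 1 point per probe or gene and a line at each list's median. Eif2b2, at 1.19 and −2.00, lies farther from 0 than every other point. It was selected on these values, so this is a description and not a test.

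The genes whose pattern over the 8 arrays was most like that of Eif2b2 were looked for among 734 genes with group means at least 1 apart on the log2 scale, after each slide's mean was subtracted. Dtx4, a Deltex family ubiquitin ligase, had the highest Pearson correlation (0.997 over 8 arrays in 4 groups). Prkcd, a protein kinase C, followed with 0.996, Hic1, a zinc finger repressor, with 0.995, Adgre5, an adhesion receptor known as CD97, with 0.993 and Bmp1, a procollagen protease, with 0.993. They were chosen for this likeness, so their values are a description.

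Dtx4 gave −0.65 and −0.78 with Jagged1 against −0.88 and −0.81 with vector in MRK-003, and 2.44 and 2.23 with Jagged1 against 0.61 and 0.66 with vector in DMSO. Prkcd gave −1.12 and −1.13 with Jagged1 against −1.19 and −1.23 with vector in MRK-003, and 0.32 and 0.28 with Jagged1 against −0.65 and −0.59 with vector in DMSO. The same order of groups, Jagged1 in DMSO over vector in DMSO over both MRK-003 groups, held for all 5 genes. Their changes for Jagged1 against vector in DMSO ran from 0.86 for Adgre5 to 1.70 for Dtx4, and 1.19 of Eif2b2 lay between them.

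**Figure D4:**
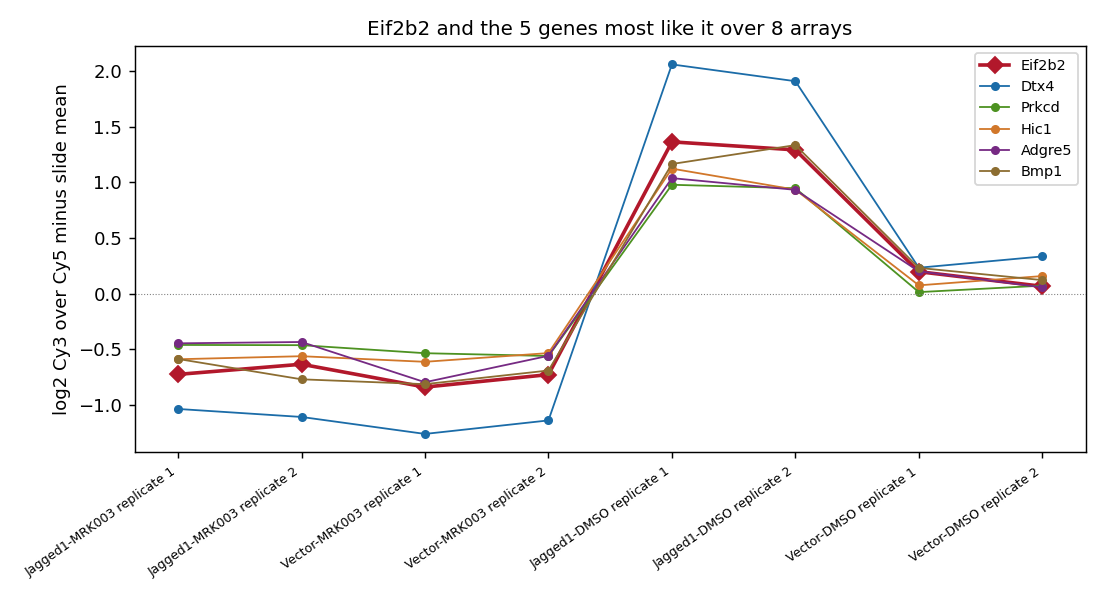
Log2 ratio of Cy3 over Cy5 less the mean of its slide for Eif2b2 and the 5 genes most like it, over the 8 arrays in group order. All 6 lines are highest in the Jagged1 DMSO cultures, and Dtx4 has the widest span of group means, 3.18.

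The genes beside Eif2b2 on chromosome 12 were taken from the RefSeq table of GRCm38.p6. The 3 nearest on the lower side were Rps6kl1, Pgf and Gm45930, and on the higher side Mlh3, Mir6938 and Gm46369, of which Rps6kl1, Pgf and Mlh3 had a tested probe. Pgf, which encodes placental growth factor and lies at chr12:85166637-85177785, had 0.67 ± 0.23 for Jagged1 over vector in DMSO and −0.81 ± 0.23 for MRK-003 over DMSO with Jagged1 (adjusted p = 0.582 and 0.371, limma). With limited background and the block it passed in both (adjusted p = 0.0316 and 0.00363), where 3.08% and 8.78% of all probes did. Mlh3, a DNA mismatch repair gene, had 0.12 ± 0.21 and 0.05 ± 0.08 on its probes in Jagged1 against vector in DMSO, and Rps6kl1 had −0.06 ± 0.08. One Mlh3 probe, A_51_P342786, had −0.29 ± 0.21 in MRK-003 against DMSO with Jagged1 and likewise passed there with limited background and the block (−0.42, adjusted p = 0.023), while its other probe did not (adjusted p = 0.818). In the loess values without the limit on the background, none of these 4 probes passed in any of the 5 comparisons, with or without the block.

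The 250 bases before the start of Eif2b2 and of Eif2b4, from RefSeq, are shown because both hold TGGGAA, the core of the motif of RBPJ, the DNA-binding partner of the Notch intracellular part. Capitals mark TGGGAA, or TTCCCA where it lies on the other strand.
Eif2b2, chr12:85219231-85219480, GRCm38.p6, plus strand: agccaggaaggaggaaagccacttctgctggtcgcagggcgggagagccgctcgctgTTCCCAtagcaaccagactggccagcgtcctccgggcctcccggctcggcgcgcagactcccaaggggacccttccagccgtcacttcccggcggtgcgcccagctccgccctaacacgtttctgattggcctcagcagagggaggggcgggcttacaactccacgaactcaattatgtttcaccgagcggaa
Eif2b4, chr5:31193140-31193389, GRCm38.p6, minus strand: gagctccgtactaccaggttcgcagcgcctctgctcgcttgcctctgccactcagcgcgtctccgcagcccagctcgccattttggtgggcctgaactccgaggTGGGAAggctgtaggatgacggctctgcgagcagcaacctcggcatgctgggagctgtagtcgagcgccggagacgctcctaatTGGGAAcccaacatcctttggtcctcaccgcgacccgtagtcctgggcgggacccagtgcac
Eif2b2 held 1 match and Eif2b4 held 2, 1 of which was part of the longer GTGGGAA. The windows of Eif2b1, Eif2b5 and Eif2s1 held none, and Eif2b3 had no window in the table used. On either strand TGGGAA was found in 21.6% of all 32851 such windows and GTGGGAA in 5.4%. Eif2b4 had changes of 0.05 and −0.02 on its probes in Jagged1 against vector in DMSO, and a link between matches and changes was not tested. A match describes letters and not binding.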

How the data were processed

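Per the file headers, the authors extracted spots with Agilent Feature Extraction 9.5.3.1, and coordinates refer to build mm7. Deposited intensity values are each spot's mean signal, median local background and processed signal (background-subtracted and dye-normalized by that software) in both channels. The deposited log10 ratios are Cy5 over Cy3, and the authors' value table held log2 values of Cy3 over Cy5 from the processed signals plus a constant per array (within 0.02 for 100% of probes), with column medians of 0.12 to 0.20. The deposited 0 and 1 marks for outliers, saturation and signal over background are the authors' other values used.

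Here mean signals were corrected by normexp with an offset of 50 and normalised by loess within arrays in limma 3.58.1 (R 4.3.3). Of 45018 spots, 1639 controls had weight 0. Outlier spots were dropped, spots of 1 probe averaged, and 303 probes without a value on some array and 7811 not well above background on both arrays of any group left out, which left 33060. limma was fitted to all 4 groups, with Benjamini-Hochberg adjustment within each of 5 comparisons, and tested on simulated data. The interaction is the Jagged1 difference in DMSO less that in MRK-003. Probe names were updated through RefSeq accessions for 22951 probes and kept from the files for 18223. The genes and lists were chosen with earlier results of these data known. Named from the lists were genes that passed, up to 3 per list with the smallest p in Jagged1 against vector in DMSO, and those said to be named after their values were seen. The replicate number is the slide, read from the barcodes, and same-numbered arrays deviated together in all 6 pairs of groups (r of 0.38 to 0.752). The replicates are labelled biological replicates without further detail. Alternatives were another background, centring, channel, filter, the slide as a block and each array left out.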

Additional observations from a re-analysis of the deposited data

How the results depend on the processing

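Counts of probes past an adjusted p of 0.05 depended on the processing, and the causes were not tested. For Jagged1 against vector in DMSO the count was 3, and it was 17 with scanner processed signals, 15 with the authors' table, 0 with median centring (2629 at an unadjusted p under 0.05), 48 with Cy3 alone, 76 with the slide as a replicate block, 49 with limited background and 1017 with both. For MRK-003 against DMSO with Jagged1 it was 61, and in the same order of settings 251, 245, 0 (912 unadjusted), 225, 484, 542 and 2904. MRK-003 against DMSO with vector gave 1 call with limited background and the block, and the interaction 92 there and 3 with Cy3 alone. Leaving out 1 array, the counts were 0 to 1 for Jagged1 against vector in DMSO, 0 to 10 for MRK-003 against DMSO with Jagged1 (0 without the first Jagged1 DMSO array) and 0 to 1 for Jagged1 against vector in MRK-003. The lone array left in a group was taken to vary like the others.

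The change of Eif2b2 in Jagged1 against vector in MRK-003 was 0.10 and turned to −0.33 with median centring. In Jagged1 against vector in DMSO it was 0.78 with median centring and 1.01 with Cy3 alone against 1.19. The other 92 of its 95 alternative values moved by less than the spread between arrays. Many of these could not move, so the count does not measure robustness. The block, the filters on dim probes and leaving out an array outside the comparison leave an estimate as it is, for the other probes too. Of 655 alternative values for the other 7 probes, 66 turned sign, all of changes no larger than 0.20, and 1 newly passed, Eif2s1 A_51_P448334 as given above. The block changed no other call of a member probe. With 2 arrays a group, only large changes can be told from the spread.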
